A study of Mus musculus with 10 samples.

Results

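The insulin-like growth factor (IGF) axis was described in the liver through 8 genes: the ligand gene *Igf1*, the receptor gene *Igf2r*, the acid-labile subunit gene *Igfals* and the binding protein genes *Igfbp1*, *Igfbp2*, *Igfbp3*, *Igfbp4* and *Igfbp7*. They were chosen by name, and all 8 were found among the 12148 genes of the count table and entered the test. Both groups were wild-type C57BL/6 mice, and all were germ-free (GF). One group received oral doses of 80 μg microbiota-derived extracellular vesicles (MEV), which are membrane particles shed by gut bacteria, in PBS (GF+MEV, n = 5), and the other received the carrier PBS only (GF+PBS, n = 5), with 2 doses a week over 3 weeks. The vesicles came from conventional specific-pathogen-free mice. The age and sex of the germ-free mice, and whether they were fed or fasted at liver collection, are not given in the sources used here. RNA was taken from whole liver, 1 library per mouse, so that fewer cells of a type and less RNA per cell cannot be told apart.

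IGF-I is made mainly by hepatocytes under the control of growth hormone, and it circulates bound to IGF binding proteins. Most of it travels in a ternary complex of IGF-I, a binding protein such as IGFBP3 and the acid-labile subunit, which holds it in the blood, whereas IGFBP1 forms smaller and short-lived complexes. The liver gene of IGFBP1 is known as one of the most insulin-sensitive genes of this organ: insulin represses it, and fasting, glucagon and glucocorticoids raise it. IGFBP7 binds IGF only weakly, and the product of *Igf2r* clears IGF-II and carries mannose 6-phosphate tagged enzymes to lysosomes.

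The libraries held between 15746119 and 20523649 counts on genes in GF+MEV and between 16140770 and 19733387 in GF+PBS. Counts were scaled by edgeR's TMM method and are given as CPM, the count of a gene scaled to the size of its library, and the groups were compared with edgeR's quasi-likelihood test, with Benjamini-Hochberg adjusted p-values (adjusted p) over all 12147 tested genes. A gene past an adjusted p of 0.05 is called higher or lower. Of these genes 928 were called (7.64%), of which 500 were higher (4.12%) and 428 lower (3.52%) in GF+MEV. The scaling factor of GF+MEV replicate 2 was 0.890 and the others lay between 0.978 and 1.04. Within GF+PBS, replicates 1 and 3 and replicates 4 and 5 were closer to each other than the 8 other pairs, with a chi-square per gene of 6.34 and 7.18, which is above sampling noise. In GF+MEV, replicate 2 stood apart, with a chi-square per gene of 133 to 175 to the 4 other livers, beside 8.15 to 21.3 among those. The called genes of the axis are therefore also given with each alike pair summed to 1 sample and without that replicate. Summing leaves fewer GF+PBS samples, so a call can be lost through lower power alone. The next closest GF+PBS pair, replicates 2 and 5 at 8.54, was not summed. Hepatocyte genes dominated, with a summed level of the 8 hepatocyte markers between 102010 and 120640 CPM in every liver.

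*Igfbp1* was the gene of the axis that differed most between the groups, with a mean level 13.2-fold higher in GF+MEV, and *Igf1* was 1.24-fold higher. The 6 other genes were not called. The 2 called genes of 8 were both higher (4.12% of all tested genes were) and none was lower (3.52%), and 7.64% were called in either direction. None of the 8 was lower at an unadjusted p of 0.05 in edgeR, or by DESeq2 or limma-voom. The median log2 fold change of the 8 was 0.13, beside -0.0037 over all tested genes, with 6 genes above 0 and 2 below.

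*Igfbp1* (ENSMUSG00000020429) lies on mouse chromosome 11 at chr11:7197782-7202546 on the plus strand of GRCm38, next to *Igfbp3* (ENSMUSG00000020427) at chr11:7206086-7213923 on the minus strand. The genes end toward each other, with 3539 bases between them. The 250 bases upstream of the *Igfbp1* start site (RefSeq, GRCm38.p6, chr11:7197537-7197786, plus strand) are shown because the known insulin response elements of this gene lie there. The same stretch of its neighbour *Igfbp3* (chr11:7213924-7214173, minus strand) is shown for contrast. Both run 5′ to 3′, and capitals mark matches to CAAAANAA, the insulin response element bound by FOXO factors, on either strand:
Igfbp1: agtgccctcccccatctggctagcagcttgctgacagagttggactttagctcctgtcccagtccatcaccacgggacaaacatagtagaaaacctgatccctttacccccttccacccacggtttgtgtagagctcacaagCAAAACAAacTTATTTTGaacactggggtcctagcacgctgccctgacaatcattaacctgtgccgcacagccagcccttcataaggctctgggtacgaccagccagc
Igfbp3: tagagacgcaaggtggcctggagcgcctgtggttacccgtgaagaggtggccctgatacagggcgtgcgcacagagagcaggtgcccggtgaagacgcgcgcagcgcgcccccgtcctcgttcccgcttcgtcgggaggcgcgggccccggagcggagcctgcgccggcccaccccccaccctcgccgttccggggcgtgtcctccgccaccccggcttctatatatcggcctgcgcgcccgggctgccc
In the *Igfbp1* window, CAAAACAA stood at -108 to -101 from the start site, and on the opposite strand a second match read as TTATTTTG at -98 to -91. No match to the element was found in the *Igfbp3* window. The insulin response element occurred in 7.16% of 32851 RefSeq promoter windows of 250 bases, and 0.636% held 2 or more. Of 11 start sites of the 8 genes, that of *Igfbp1* was the 1 with a match. Half-sites for the glucocorticoid receptor (AGAACA, 16.1% of windows) were found upstream of *Igfbp2* and of 1 *Igfals* start site, and not in the *Igfbp1* window. Only exact matches were sought, so a site with other letters would be missed. The STAT motif TTCNNNGAA (7.02% of windows) stood upstream of 2 *Igfals* start sites, *Igfals* being a textbook target of STAT5, and TGACG, a half-site for CREB and related factors (17.8% of windows), stood upstream of *Igf2r* and *Igfals*. For the start sites with the *Igfbp2* and *Igf2r* matches, bases just downstream were not found in an annotated transcript of the gene. The same was so for 1 of the 2 *Igfals* sites with a STAT match, which also held the TGACG match. A match describes the letters and says nothing of binding in these livers.

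In GF+PBS, *Igfbp1* was measured at 33.1, 39.7, 30.2, 55.3 and 56.7 CPM in replicates 1 to 5. In GF+MEV it was at 708, 474, 370, 730 and 561 CPM. Every GF+MEV liver lay above every GF+PBS liver, as was so or the reverse for 7.39% of all tested genes, and the lowest GF+MEV value was 6.52 times the highest GF+PBS value. The means were 568 ± 153 CPM against 43.0 ± 12.4 CPM (SD over 5 livers), and the log2 fold change was 3.72 (SE 0.26, edgeR adjusted p = 8.54e-08). By an exact two-sided permutation test p was 0.00794, the smallest that 5 mice against 5 allow. With the alike GF+PBS livers summed the log2 fold change was 3.75 (edgeR adjusted p = 4.7e-06), and without GF+MEV replicate 2 it was 3.78 (2.86e-07). Among the 12147 tested genes *Igfbp1* ranked 4 by the size of its log2 fold change and 10 by its p-value. Its level also varied more between mice of the same group than that of most genes: the coefficient of variation was 27.0% in GF+MEV and 28.8% in GF+PBS, beside medians of 8.17% and 8.54% over the 7487 genes that averaged 10 CPM or more.

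**Figure D1:**
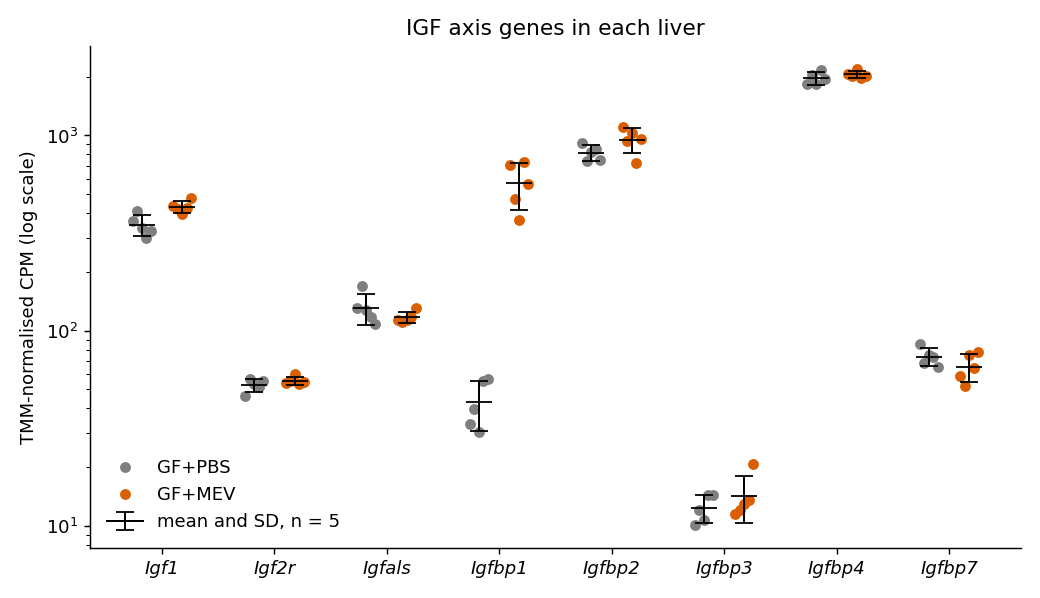
TMM-normalised CPM (log scale) of the 8 genes in each liver, with GF+PBS in grey and GF+MEV in orange and black bars for the mean and SD of 5 livers. *Igfbp1* is the gene whose groups do not overlap, with 30.2 to 56.7 CPM in GF+PBS and 370 to 730 CPM in GF+MEV.

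*Igfbp3*, the main carrier of IGF-I in blood, lies 3539 bases from *Igfbp1* and is the only tested gene within 250 kb of it. It was measured at 10.1, 12.1, 10.7, 14.5 and 14.4 CPM in GF+PBS and at 11.47, 12.01, 12.99, 13.47 and 20.75 CPM in GF+MEV. The groups overlapped, with GF+MEV replicate 5 above all other livers. The log2 fold change was 0.19 (SE 0.18, edgeR adjusted p = 0.535), and without that replicate it was 0.02 (edgeR adjusted p = 0.955). In normal liver *Igfbp3* is expressed mainly by sinusoidal endothelial and other non-parenchymal cells, whereas *Igfbp1* is a hepatocyte gene.

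*Igf1* (ENSMUSG00000020053, chr10:87858265-87937042, plus strand), the gene of the ligand, was measured at 363, 412, 337, 299 and 324 CPM in GF+PBS. In GF+MEV it was at 433, 420, 398, 427 and 478 CPM. Of the 5 GF+MEV livers 4 lay above every GF+PBS liver, and the remaining one, replicate 3, lay below GF+PBS replicate 2. The means were 431 ± 29.5 CPM and 347 ± 43.0 CPM (SD over 5 livers), and the log2 fold change was 0.31 (SE 0.09, edgeR adjusted p = 0.0285; exact two-sided permutation p = 0.0159). Summing the alike GF+PBS livers leaves fewer samples. The call was lost in that fit, at 0.28 on the log2 scale (edgeR adjusted p = 0.118). Without GF+MEV replicate 2 it held, at 0.32 (edgeR adjusted p = 0.0419). Library sizes alone also lost it, at 0.24 (edgeR adjusted p = 0.129), as did leaving out GF+MEV replicate 1 or 5 or GF+PBS replicate 3, 4 or 5, with edgeR adjusted p-values between 0.0580 and 0.0727.

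*Igfals* (ENSMUSG00000046070, chr17:24865997-24882010, plus strand), the subunit that completes the ternary complex, was at 130, 170, 128, 118 and 108 CPM in GF+PBS and at 114, 111, 114, 117 and 130 CPM in GF+MEV. The GF+MEV values lay within the range of GF+PBS. The log2 fold change was -0.16 (SE 0.12, edgeR adjusted p = 0.407), and without GF+PBS replicate 2, the highest liver, it was -0.04 (edgeR adjusted p = 0.790). The coefficient of variation was 6.55% in GF+MEV and 18.2% in GF+PBS. Per kilobase of exon, *Igfals* was at 0.850 ± 0.029 times the level of *Igf1* in GF+MEV (0.821 to 0.893) and at 1.17 ± 0.097 times in GF+PBS (1.04 to 1.29). These ratios did not overlap between the groups. Of the other ratios computed, *Igfbp4* to *Igf1* overlapped (9.45 to 12.4 in GF+MEV, 11.1 to 16.3 in GF+PBS), while those with *Igfbp1* did not. The share of all gene pairs whose ratios do not overlap was not computed. No test was made on a ratio of genes chosen with earlier results known.

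*Igf2r* (ENSMUSG00000023830, chr17:12682406-12769664, minus strand) was at 46.5, 56.8, 53.4, 51.4 and 55.1 CPM in GF+PBS and at 53.6, 55.3, 60.2, 53.2 and 54.5 CPM in GF+MEV. Its groups overlapped, and the log2 fold change was 0.07 (SE 0.06, edgeR adjusted p = 0.578). The other receptor genes were not called either. *Igf1r*, the signalling receptor for IGF-I, was at 1.76 CPM in both groups, as is usual for adult liver, where hepatocytes express little of it. *Insr*, the insulin receptor gene, was at 137 ± 9.93 CPM in GF+MEV and 115 ± 20.9 CPM in GF+PBS (log2 fold change 0.25, edgeR adjusted p = 0.178). *Igf2* was not analysed here.

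*Igfbp2* and *Igfbp4* were the most abundant binding protein genes per length. *Igfbp2* (ENSMUSG00000039323, chr1:72824503-72852474, plus strand), which encodes another insulin-sensitive carrier, was at 917, 742, 827, 849 and 745 CPM in GF+PBS and at 1109, 941, 1027, 724 and 960 CPM in GF+MEV. In GF+MEV 4 livers lay above every GF+PBS liver, and replicate 4 lay below all of them. The log2 fold change of 0.22 (SE 0.12) did not pass the test (edgeR adjusted p = 0.214; exact two-sided permutation p = 0.119), and it passed without GF+MEV replicate 4, at 0.31 (edgeR adjusted p = 0.0301).

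*Igfbp4* (ENSMUSG00000017493, chr11:99041244-99054392, plus strand), whose product mainly restrains IGF, was at 1832 to 2172 CPM in GF+PBS (median 1949) and at 1967 to 2198 CPM in GF+MEV (median 2026). Its groups overlapped, with a log2 fold change of 0.07 (SE 0.05, edgeR adjusted p = 0.607). *Igfbp7* (ENSMUSG00000036256, chr5:77349240-77408041, minus strand), which is expressed mainly by vascular and stromal cells, was at 64.7 to 85.3 CPM in GF+PBS and at 52.2 to 77.3 CPM in GF+MEV. Its log2 fold change was -0.17 (SE 0.13, edgeR adjusted p = 0.396). Exons of *Igfbp7* overlap those of *Polr2b* on the opposite strand within chr5:77349240-77349324, where the ends of the genes meet. The strand setting of the counting is not given in the sources used here, so reads in that shared stretch could not be separated. *Igfbp5* and *Igfbp6*, the other binding proteins in the table, were low, with means under 10 CPM in both groups, and were not called (log2 fold change 0.47 each, edgeR adjusted p = 0.625 and 0.697).

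**Figure D2:**
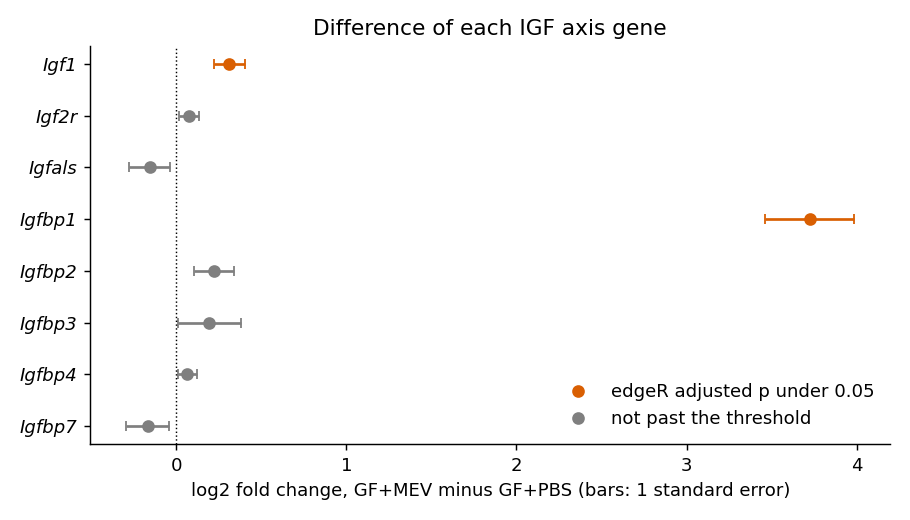
Log2 fold change of each gene (GF+MEV minus GF+PBS), with bars of 1 standard error, orange where the edgeR adjusted p was under 0.05. *Igfbp1* stands at 3.72 and *Igf1* at 0.31, while the 6 other genes lie between -0.17 and 0.22.

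Levels of different genes were compared as CPM per kilobase of merged exons. In GF+PBS the order ran from *Igfbp4* (445) and *Igfbp2* (442) through *Igfbp7* (60.8), *Igfals* (41.2), *Igf1* (35.0) and *Igfbp1* (28.2) to *Igf2r* (5.65) and *Igfbp3* (3.94). In GF+MEV *Igfbp1* stood at 373, after *Igfbp2* (516) and *Igfbp4* (465) and before *Igfbp7* (54.1), *Igf1* (43.5), *Igfals* (37.0), *Igf2r* (5.95) and *Igfbp3* (4.52). The ranges of neighbours in these orders overlapped, except for *Igfbp2* against *Igfbp7* and *Igfbp1* against *Igf2r* and *Igf2r* against *Igfbp3* in GF+PBS, and *Igfbp1* against *Igfbp7* and *Igfals* against *Igf2r* in GF+MEV. The close places depend on the length used: per kb of the longest annotated transcript, *Igf1* (61.1) stood before *Igfbp7* (54.5) in GF+MEV, and *Igfbp2* (624) stood before *Igfbp4* (513) in GF+PBS. Among the 12142 genes ranked by level per length, *Igfbp1* was at place 1410 in GF+PBS and at place 136 in GF+MEV.

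The summed level of the 5 binding protein genes was 980 ± 49.4 CPM per kb in GF+PBS and 1412 ± 102 in GF+MEV (SD, n = 5 each). *Igfbp1* made up 2.88% ± 0.81 of the sum in GF+PBS (2.09% to 3.96%) and 26.3% ± 6.37 in GF+MEV (17.8% to 34.8%), and 21.9% ± 5.696 in GF+MEV by the longest transcript. Without *Igfbp1*, the sum was 951 ± 48.1 in GF+PBS and 1040 ± 93.0 in GF+MEV, and the groups overlapped. In ratio to the ligand gene, *Igfbp1* was at 0.827 ± 0.313 times the level of *Igf1* per kb in GF+PBS and at 8.54 ± 2.21 times in GF+MEV. These sums and ratios are descriptions of RNA, with no test, and say nothing of protein in blood.

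**Figure D3:**
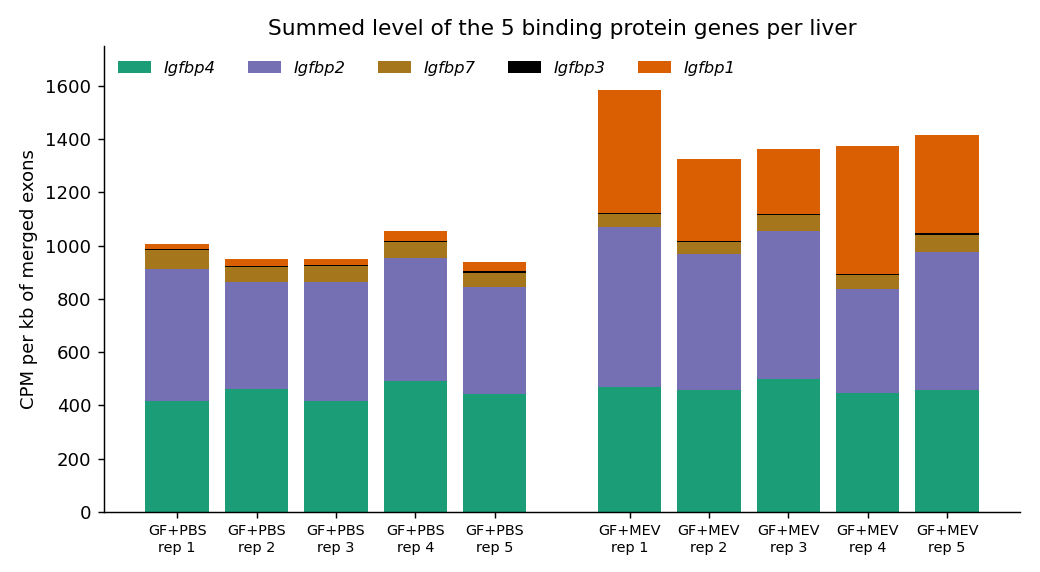
Summed CPM per kb of merged exons of the 5 binding protein genes, 1 bar per liver, stacked by gene. The orange part, *Igfbp1*, makes up 2.09% to 3.96% of the bar in GF+PBS and 17.8% to 34.8% in GF+MEV.

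Of 8 genes of factors known to act on the *Igfbp1* promoter, 2 were higher, 3 were lower and 3 were not called, beside 4.12% and 3.52% of all tested genes. *Foxo1*, the factor through which insulin represses *Igfbp1*, was at 17.5, 28.9, 21.6, 24.5 and 23.0 CPM in GF+PBS and at 37.3, 41.0, 38.1, 42.5 and 40.6 CPM in GF+MEV. The groups did not overlap, and the log2 fold change was 0.79 (SE 0.12, edgeR adjusted p = 2.05e-04). *Foxo3*, a second factor of the same family, rose by 0.57 on the log2 scale (edgeR adjusted p = 0.00404), from 62.6 ± 11.02 to 92.9 ± 7.67 CPM, and *Foxo4* was not called.

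The forkhead pioneer factor genes went the other way. *Foxa2*, whose product keeps liver chromatin open and binds near the insulin response elements, was at 39.5, 29.8, 41.8, 43.0 and 35.7 CPM in GF+PBS and at 12.4, 12.8, 11.5, 16.2 and 14.5 CPM in GF+MEV. It fell in GF+MEV, with no overlap and a log2 fold change of -1.49 (SE 0.13, edgeR adjusted p = 9.08e-07). *Foxa1* also fell (log2 fold change -0.66, edgeR adjusted p = 6.44e-05), as did *Atf4*, a factor of the amino acid and stress response (-0.36, edgeR adjusted p = 0.00237). These calls of *Foxo1*, *Foxo3*, *Foxa1*, *Foxa2* and *Atf4* held under each of the 19 alternatives run. The genes of the glucocorticoid receptor (*Nr3c1*, log2 fold change 0.05), of HIF1A (-0.02) and of PPARA (0.09) were not called.

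**Figure D4:**
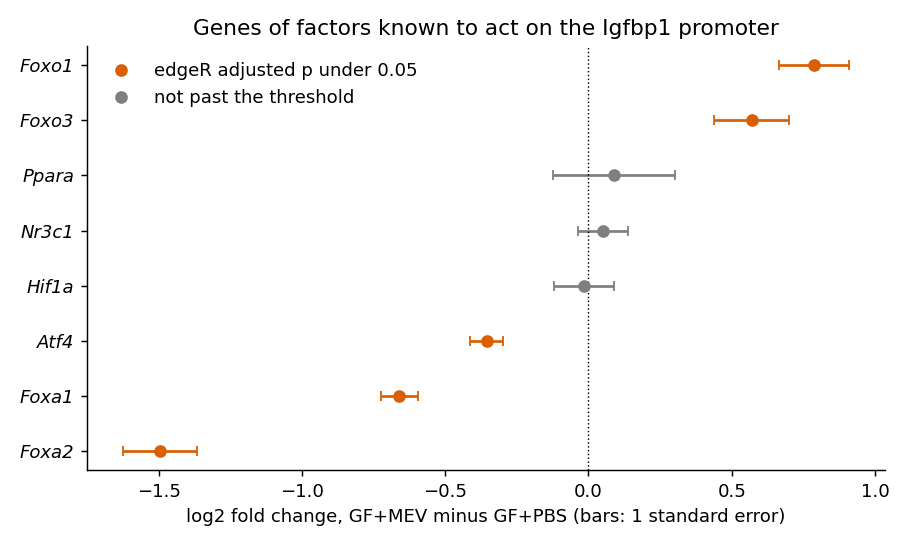
Log2 fold change (GF+MEV minus GF+PBS) of 8 genes of factors known to act on the *Igfbp1* promoter, with bars of 1 standard error, orange where the edgeR adjusted p was under 0.05. *Foxo1* (0.79) and *Foxo3* (0.57) lie above 0, and *Atf4* (-0.36), *Foxa1* (-0.66) and *Foxa2* (-1.49) lie below.

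In the list of 16 genes of insulin and IGF receptor signalling, *Foxo1* and *Foxo3* were the 2 called genes. Both were higher, where 4.12% of all tested genes were called higher and 3.52% lower. At an unadjusted p of 0.05 in edgeR, 6 of the 16 were higher and 0 lower. This list had a median log2 fold change of 0.11, beside -0.0037 over all tested genes. *Irs2*, the liver's main insulin receptor substrate gene next to *Irs1* and itself a FOXO target, was at 42.4 ± 12.2 CPM in GF+MEV and 25.6 ± 7.90 CPM in GF+PBS and missed the threshold (log2 fold change 0.73, edgeR adjusted p = 0.0539). The kinase genes *Akt1* and *Akt2* were not called.

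Growth hormone drives *Igf1* and *Igfals* in liver through its receptor, JAK2 and STAT5. Of 10 tested genes of this signalling, 3 were lower and none was higher by edgeR or limma-voom, beside 3.52% lower and 4.12% higher of all tested genes, with a median log2 fold change of -0.02 beside -0.0037. DESeq2 called 1 higher, and 1 was higher at an unadjusted p of 0.05 in edgeR. *Cish*, a feedback inhibitor and early STAT5 target, was at 15.2, 11.2, 18.4, 24.9 and 24.2 CPM in GF+PBS and at 5.43, 2.48, 6.52, 12.01 and 4.05 CPM in GF+MEV. The highest GF+MEV liver, replicate 4, lay above the lowest GF+PBS liver, and the log2 fold change was -1.60 (SE 0.43, edgeR adjusted p = 0.00554).

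*Socs3*, an inhibitor of cytokine and growth hormone signalling, was lower in all 5 GF+MEV livers (8.55 to 11.7 CPM) than in GF+PBS (13.6 to 26.4 CPM), with a log2 fold change of -1.18 (SE 0.20, edgeR adjusted p = 2.75e-04). *Stat5a* was also lower (-0.54, edgeR adjusted p = 0.0330), a call that held under 12 of 19 alternatives. Exons of *Stat5a* overlap those of *Stat3* on the opposite strand, and reads in the stretch they share could not be separated. The log2 fold change of *Stat3* was 0.24 (edgeR adjusted p = 0.0532). *Stat5b*, the main STAT5 gene of liver, the receptor gene *Ghr* and the kinase gene *Jak2* were not called, with log2 fold changes of -0.05, 0.08 and -0.13.

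Of 16 tested genes known as growth hormone targets in liver, 4 were higher and 1 was lower, beside 4.12% and 3.52% of all tested genes, with a median log2 fold change of 0.35 beside -0.0037. The higher ones were *Igf1*, *Egfr* (log2 fold change 0.94, edgeR adjusted p = 0.00535), *Mup20* (0.84, edgeR adjusted p = 0.00197) and *Ugt2b38* (1.84, edgeR adjusted p = 0.00144), and the lower one was *Cish*. *Egfr* in GF+PBS replicate 2 was at 568 CPM, within the range of GF+MEV (544 to 954 CPM), while the 4 other GF+PBS livers were at 293 to 335 CPM, and its call was lost with the alike GF+PBS livers summed (edgeR adjusted p = 0.0538). *Mup20* and *Ugt2b38* belong to gene families with closely related members, and how far reads shared with these affect their counts was not tested. *Socs2*, a close relative of *Cish* and also a STAT5 target, was at 29.2 ± 16.5 CPM in GF+MEV and 23.7 ± 8.77 CPM in GF+PBS and was not called. The list was not split by whether growth hormone raises or lowers each gene, so its counts and median give no direction for the hormone.

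Genes of proteins related to the binding proteins, or that cut them, came next, with 7.64% of all tested genes called. Of 3 tested IGFBP-related genes, *Ccn2*, a matricellular protein gene and target of YAP, was higher, at 4.82 ± 0.88 CPM in GF+MEV and 1.57 ± 0.59 CPM in GF+PBS (log2 fold change 1.60, edgeR adjusted p = 4.37e-04). Of 8 tested proteases, *Adamts1* was higher (0.56, edgeR adjusted p = 0.0274), a call that held under 11 of 19 alternatives. *Pappa*, *Pappa2*, *Stc1* and *Stc2* were not analysed here. None of 5 genes for mannose 6-phosphate tagging and its receptors, *Igf2r* included, was called by edgeR, DESeq2 or limma-voom, with a median log2 fold change of -0.07 and 1 gene past an unadjusted p of 0.05 in edgeR.

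Markers of other liver cells were read beside these results, where 4.12% of all tested genes were called higher and 3.52% lower. Of 10 sinusoidal endothelial markers, *Lyve1* was higher (log2 fold change 0.84) and *Clec4g* lower (-0.48). By DESeq2, and at an unadjusted p of 0.05 in edgeR, 1 was higher and 2 were lower. Their median log2 fold change was -0.16, beside -0.0037 over all tested genes. The summed level was 193 to 302 CPM in GF+MEV and 224 to 305 CPM in GF+PBS. None of 8 Kupffer cell markers (229 to 439 CPM against 262 to 382 CPM) and none of 10 stellate cell markers (307 to 426 CPM against 359 to 382 CPM) was called by edgeR, DESeq2 or limma-voom, with 0 and 1 past an unadjusted p of 0.05 in edgeR. Of 8 hepatocyte markers, *Cps1*, *Ass1* and *Hnf4a* were higher by 0.36 to 0.45 on the log2 scale, while *Alb* was not called. The calls of *Cps1*, *Lyve1* and *Clec4g* held under 7, 11 and 15 of 19 alternatives.

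Of 3 tested cholangiocyte markers, *Krt19* was higher (3.87, edgeR adjusted p = 6.31e-04), beside 4.12% of all tested genes. It was at 0.964 to 16.8 CPM in GF+MEV and 0.303 to 0.781 CPM in GF+PBS. The summed level of the 3 was 28.1 to 79.3 CPM against 23.2 to 29.7 CPM. *Spp1* and *Sox9* were not called. Of 3 tested leukocyte markers the B cell genes *Cd79a* and *Cd79b* were lower (-0.87 and -0.76), beside 3.52% of all tested genes. The call of *Cd79b* held under 11 of 19 alternatives. Both genes were low, with means of 1.30 and 1.37 CPM in GF+MEV and 2.39 and 2.34 CPM in GF+PBS. *Ptprc* was not called (-0.23, edgeR adjusted p = 0.62). Skeletal muscle markers summed to 224 to 310 CPM in GF+MEV and 191 to 664 CPM in GF+PBS, with none of 4 called by edgeR, DESeq2 or limma-voom and 1 past an unadjusted p of 0.05 in edgeR. The part of these differences in the values of the IGF axis genes was not tested.

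Of 51 pairs of a gene of the axis and a tested gene within 250 kb of it, 5 held a called neighbour, or 9.80%, near the 7.64% of all tested genes. *Igfbp1*, as the neighbour of *Igfbp3*, was the one with the largest log2 fold change. No tested neighbour of *Igf1*, *Igfbp2* or *Igfbp4* was called, while *Acat2* (-0.31) near *Igf2r*, *Hopx* (0.67) near *Igfbp7*, and *Telo2* (-0.53) and *Fahd1* (-0.23) near *Igfals* were called, and are named with their log2 fold changes known.

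Among the genes whose log2 CPM followed *Igfbp1* most closely over the 10 livers, by Pearson's r, were *Arl4d* (0.995), *Irf2bp2* (0.992), *Jun* (0.992) and *Pim3* (0.992). *Jun* encodes a subunit of the AP-1 factor and *Pim3* a serine/threonine kinase. The 10 points fall into the 2 groups, so these values carry the group difference, and all 4 genes were higher in GF+MEV, by 2.01 to 2.78 on the log2 scale. *Jun* overlaps an annotated antisense gene, and *Irf2bp2* overlaps a gene on the opposite strand. Exons of *Foxo1*, *Cish*, *Ccn2* and *Clec4g* likewise overlap annotated genes on the opposite strand, and reads in the shared stretches could not be separated.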

How the data were processed

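RNA of whole liver from 10 mice was sequenced by the authors, who prepared NEBNext Ultra libraries. Per the labels and the study's methods they aligned reads to GRCm38 with STAR 2.7.3a, counted them per gene with HTSeq, left out genes whose counts came to under 20, and deposited the raw counts, not normalized. The table held 5 further columns of no described sample, which were not used.

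Groups came from the sample titles. Of 12148 genes, the 12147 that reached 20 counts over the 10 livers were tested in R 4.3.3 with edgeR 4.0.16 (TMM, quasi-likelihood fit on treatment, Benjamini-Hochberg threshold 0.05). Standard errors used log2 CPM, computed with prior count 2. Single genes were also compared by exact two-sided permutation tests. Levels between genes used merged exons of the GENCODE annotation of GRCm38, and promoters came from RefSeq (GRCm38.p6), where all 8 genes matched. The members, the lists and the tests were chosen with earlier results of these data known. Besides the 8 genes, the text names at most 4 called genes of each list with the largest log2 fold changes, genes within 250 kb of *Igfbp1* and *Igfbp3*, and the 5 genes with at least 1 CPM most like *Igfbp1*. A few genes that these rules or lists include are not reported here. The fifth called gene of the *Igfbp1* promoter factors, called neighbours of other axis genes and list genes that were not called are also named, chosen with their values known. The fits by edgeR, DESeq2 and limma were tested on simulated data.

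Alternatives were DESeq2 1.42.0, limma-voom (limma 3.58.1), other normalizations and filters, a block for replicate number, alike GF+PBS livers summed, each liver left out, and the longest annotated transcript in place of merged exons. The labels number separate mice, and whether they were littermates or shared cages is not given. The p-values weigh the difference between the groups against the spread between these mice. Libraries held 15746119 to 20523649 counts on genes, so precision is lowest for genes of few CPM.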

Additional observations from a re-analysis of the deposited data

Results flagged for a closer look

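*Igfbp3* in GF+MEV replicate 5 was at 20.753 CPM, far from the 4 other livers of its group, which lay between 11.5 and 13.5 CPM. The gap to the nearest liver, divided by the range of the group, was 0.784, above the limit of 0.71 for 5 samples (Dixon's test at 95%). Of 16 groups of 5 livers, this was the only one past the limit, and chance gives about 5% of groups. Its part in the log2 fold change of *Igfbp3* is given with the gene above.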

How the results depend on the processing

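*Igfbp1* stayed higher and past the threshold under all 19 alternatives, with log2 fold changes of 3.62 to 3.84. *Igfals*, *Igfbp3* and *Igfbp7* kept their direction and were not called under any of them. The number of the 8 genes called was 2, and it was 1 with upper-quartile normalization, with library size only and with the alike GF+PBS livers summed, and between 1 and 3 with each liver left out. *Igf1* was lost in all of the cases with 1: its log2 fold change was 0.27 with upper-quartile normalization (edgeR adjusted p = 0.0526), 0.24 with library size only and 0.28 with the alike livers summed, and 0.26 to 0.38 with each liver left out (lost without GF+MEV replicates 1 or 5 or GF+PBS replicates 3, 4 or 5). *Igfbp2* was at 0.16 to 0.31 with each liver left out. With library size only, *Igfbp4* (-0.0087) and *Igf2r* (-0.0022) turned below 0. The cause was not tested.

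Over all genes 928 were called (53.9% higher), against 561 with the alike livers summed and 696 to 926 with each liver left out. The fits with livers summed or left out hold fewer samples. Upper-quartile normalization gave 428 higher and 612 lower (41.2% higher) and library size only gave 332 higher and 691 lower (32.5% higher), with the median log2 fold change of all genes at -0.05 and -0.08. With a replicate block 792 genes were called, and *Igf1* had an edgeR adjusted p of 0.0499. Same-numbered livers correlated at -0.151 to 0.141 in their deviations from the group means over the 500 most variable genes, and 1 of 5 livers in each group correlated best with its own number, so the numbers were not taken as pairs. The block changed no call among the 8 genes.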
